A study of Rattus norvegicus with 12 samples.

Results

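Genes of the heart muscle sarcomere and its calcium, energy and hormone systems were followed in RNA libraries made from rat lung. The set held 32 genes out of 19230 rows in the deposited table, and each of the 32 had a row of its own. They were chosen by their measured levels in the lung libraries, since 1 normoxia lung and all lungs labelled Ahr-KO had shown RNA of heart muscle. Every level, difference and count of them in lung, or set against lung, is therefore a description and not a test.

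Sprague-Dawley rats gave 12 libraries in 4 groups of 3. Lungs labelled Ahr-KO, with the gene of the aryl hydrocarbon receptor targeted, were taken at day 4 of SuHx. Wild-type (WT) lungs were taken at day 4 of SuHx, endothelial cells (ECs) came from WT rats in normoxia, and WT normoxia lungs were labelled day 0. SuHx joins SU5416, an inhibitor of VEGF receptors, with hypoxia, and models pulmonary arterial hypertension. Neither SU5416 nor hypoxia was given alone, and no Ahr-KO lung was kept in normoxia, so genotype and treatment could not be crossed. The ECs are labelled day 4 while their columns in the table carry a 0. Neither the isolation of the ECs nor whether replicates are separate animals is stated. The p-values therefore weigh group differences only against the spread of these samples, which may not be that between animals. Libraries are named by group and by the number that their columns carry, from 0 to 2.

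Heart muscle contracts when myosin thick filaments pull on actin thin filaments, and calcium released from the sarcoplasmic reticulum switches the thin filament on through the troponin complex. Atria and ventricles use different versions of several of these proteins: the light chains of Myl7 and Myl4, the calcium pump inhibitor sarcolipin (Sln) and the hormone of Nppa mark atria, and the light chains of Myl2 and Myl3 mark ventricles. In rats and mice a sleeve of heart muscle cells of atrial type extends along the pulmonary veins into the lung, so lung tissue can hold some of this RNA.

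The deposited value of a gene is a signal: estimated reads after division by a factor that each library has. A single read was worth 0.745 to 1.25, so a value under about 3 stood for only a few reads. Totals were 20.6 M to 27.1 M per library. Ahr, the targeted gene, had a signal of 2515, 2523 and 1800.0 in Ahr-KO SuHx lungs, against 1996, 3073 and 1739.6 in WT SuHx lungs. The groups overlapped, with a log2 fold change of 0.03 ± 0.26 (SE, limma, adjusted p = 0.966). Which part of Ahr was removed is not stated, so its mRNA may check nothing, and genotype is given as labelled. The labelled EC identity was checked on marker lists: all 10 endothelial markers were higher and all 11 alveolar epithelial markers lower in ECs than in normoxia lung, although the alveolar markers still summed to 132952 to 279496 in ECs.

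Together the 32 genes took 0.0434%, 0.0325% and 0.180% of all signal in Ahr-KO SuHx replicates 0, 1 and 2. They took 0.0181%, 0.0151% and 0.0135% in WT SuHx lungs, 0.00287%, 0.00250% and 0.00313% in ECs, and 0.00783%, 0.00629% and 0.0790% in normoxia replicates 0, 1 and 2. Thus 1 of the normoxia lungs, replicate 2, lay above all WT SuHx lungs and above 2 of the 3 Ahr-KO lungs, and replicate 2 of Ahr-KO lay above every other library. The mean shares were 0.0854 ± 0.0823% in Ahr-KO SuHx lungs, 0.0156 ± 0.00236% in WT SuHx lungs, 0.00283 ± 0.000315% in ECs and 0.0311 ± 0.0416% in normoxia lungs (SD, n = 3 each). The SD was about as large as the mean in Ahr-KO SuHx lungs and larger than it in normoxia lungs. In tissue RNA, fewer cells of a type and less RNA per cell cannot be told apart.

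**Figure D1:**
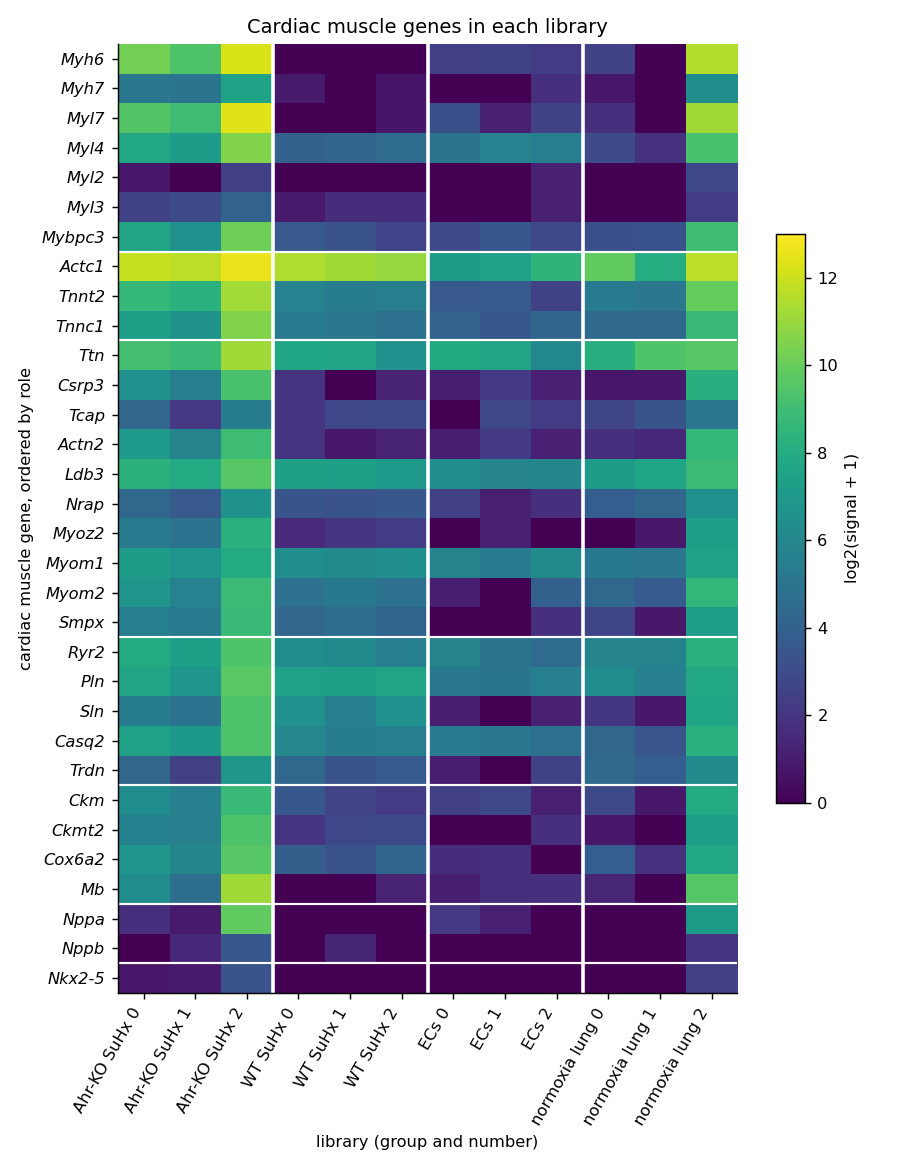
Level of the 32 cardiac muscle genes, as log2(signal + 1), in each of the 12 libraries, with rows ordered by role (from the top, thick filament, thin filament, titin with Z disc and M line, calcium handling, energy and oxygen, natriuretic peptides, transcription factor). Columns of Ahr-KO SuHx 2 and normoxia lung 2 are brightest, Ahr-KO SuHx 0 and 1 are next, and Actc1 is bright in WT SuHx lungs too.

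The ranking of the libraries was nearly the same from gene to gene. Among the 9 lung libraries, Ahr-KO SuHx 2 had the highest signal for 31 of the 32 genes and normoxia 2 for the remaining one, Myl2. Normoxia 2 came second for 29. For 24 genes the 3 Ahr-KO lungs and normoxia 2 all lay above the other 5 lungs. The share of all tested genes with this order was not computed, so the 24 cannot be set against it. Of the 24, Nppa in Ahr-KO SuHx 1 (0.886) and Nkx2-5 in Ahr-KO SuHx 0 (0.774) kept this order by a single read. The 8 genes that broke this order were Myl2, Ttn, Tcap, Nrap, Pln, Sln, Trdn and Nppb. Within its group, normoxia 2 was highest for 32 of 32 genes, where 37.3% of all tested genes had it highest. Ahr-KO SuHx 2 was likewise highest of its group for 32 of 32, against 38.6% of all tested genes.

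Among the thick filament genes, Myh6 and Myh7 were high in the Ahr-KO SuHx lungs and in normoxia 2. Myh6, the alpha-myosin heavy chain, had a signal of 1228, 673 and 4900.1 in Ahr-KO SuHx lungs, 0, 0 and 0 in WT SuHx lungs, 4.55, 4.82 and 3.74 in ECs, and 4.77, 0 and 2879.7 in normoxia lungs. It was listed at 0 in every WT SuHx lung, so no fold is given against them, and its normoxia lungs spanned the gap. Myh7, the beta heavy chain, gave 36.4, 31.0 and 177.04 in Ahr-KO SuHx lungs, 0.946, 0 and 0.745 in WT SuHx lungs, 0, 0 and 2.50 in ECs, and 0.796, 0 and 89.0 in normoxia lungs. The pair is close in sequence and may share reads.

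Both atrial light chains followed Myh6. Myl7, the atrial regulatory light chain, had a signal of 741, 504 and 5559 in Ahr-KO SuHx lungs, 0, 0 and 0.745 in WT SuHx lungs, 7.97, 1.21 and 4.99 in ECs, and 2.39, 0 and 2251 in normoxia lungs. Myl4, the atrial essential light chain, gave 213, 143 and 1477 in Ahr-KO SuHx lungs, 15.1, 17.6 and 22.3 in WT SuHx lungs, 30.7, 53.02 and 47.4 in ECs, and 7.16, 2.56 and 623 in normoxia lungs. Unlike Myl7, Myl4 stayed well above a few reads in WT SuHx lungs and in ECs.

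The ventricular light chains were low. Myl2 had a signal of 0.774, 0 and 4.56 in Ahr-KO SuHx lungs, 0, 0 and 0 in WT SuHx lungs, 0, 0 and 1.25 in ECs, and 0, 0 and 6.14 in normoxia lungs. Myl3, which slow skeletal muscle also uses, gave 4.64, 7.08 and 16.7 in Ahr-KO SuHx lungs, 0.946, 2.29 and 2.23 in WT SuHx lungs, 0, 0 and 1.25 in ECs, and 0, 0 and 3.83 in normoxia lungs. Neither reached 20 in any library, including those in which Myl7 had 2251 or more. Mybpc3, cardiac myosin-binding protein C, had 190.4, 90.3 and 1112 in Ahr-KO SuHx lungs, 11.4, 9.18 and 5.21 in WT SuHx lungs, 6.83, 10.8 and 6.24 in ECs, and 7.96, 8.52 and 525 in normoxia lungs.

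Of the thin filament genes, Actc1, the cardiac alpha-actin, behaved unlike the rest. Its signal was 3648, 3346 and 6273 in Ahr-KO SuHx lungs, 2751, 2227 and 1959 in WT SuHx lungs, 135, 175 and 354 in ECs, and 903, 267 and 3389.7 in normoxia lungs. All WT SuHx lungs thus lay above normoxia 0 and 1, and normoxia 2 lay above all WT SuHx lungs. Tnnt2 and Tnnc1 shared this order, but their WT SuHx lungs exceeded normoxia 0 and 1 by smaller folds. Actc1 made up 71.4%, 69.5% and 68.3% of the summed signal of the 32 genes in WT SuHx lungs, against 53.0%, 18.5% and 20.2% in normoxia lungs. In Ahr-KO SuHx lungs that share was 39.9%, 48.8% and 16.9%. Reads of Actc1 may be shared with the other actin genes: smooth muscle actin Acta2 had 14117, 13078 and 7950.1 in Ahr-KO SuHx lungs, 12755, 11263 and 10073 in WT SuHx lungs, and 4340.5, 2815 and 6134 in normoxia lungs. Acta2 was lowest of its group in Ahr-KO SuHx 2, where Actc1 was highest.

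Tnnt2, cardiac troponin T, was the gene closest to the average of the set across the 9 lungs. It gave 399, 313 and 2330.4 in Ahr-KO SuHx lungs, 53.0, 44.4 and 45.4 in WT SuHx lungs, 11.4, 12.1 and 4.99 in ECs, and 41.4, 34.1 and 979 in normoxia lungs. Tnnc1, the troponin C of cardiac and slow skeletal muscle, gave 163, 103 and 1464 in Ahr-KO SuHx lungs, 40.7, 34.4 and 28.3 in WT SuHx lungs, and 20.9, 21.3 and 433 in normoxia lungs. Both kept a level above 20 in all lungs, which Myh6 and Myl7 did not.

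**Figure D2:**
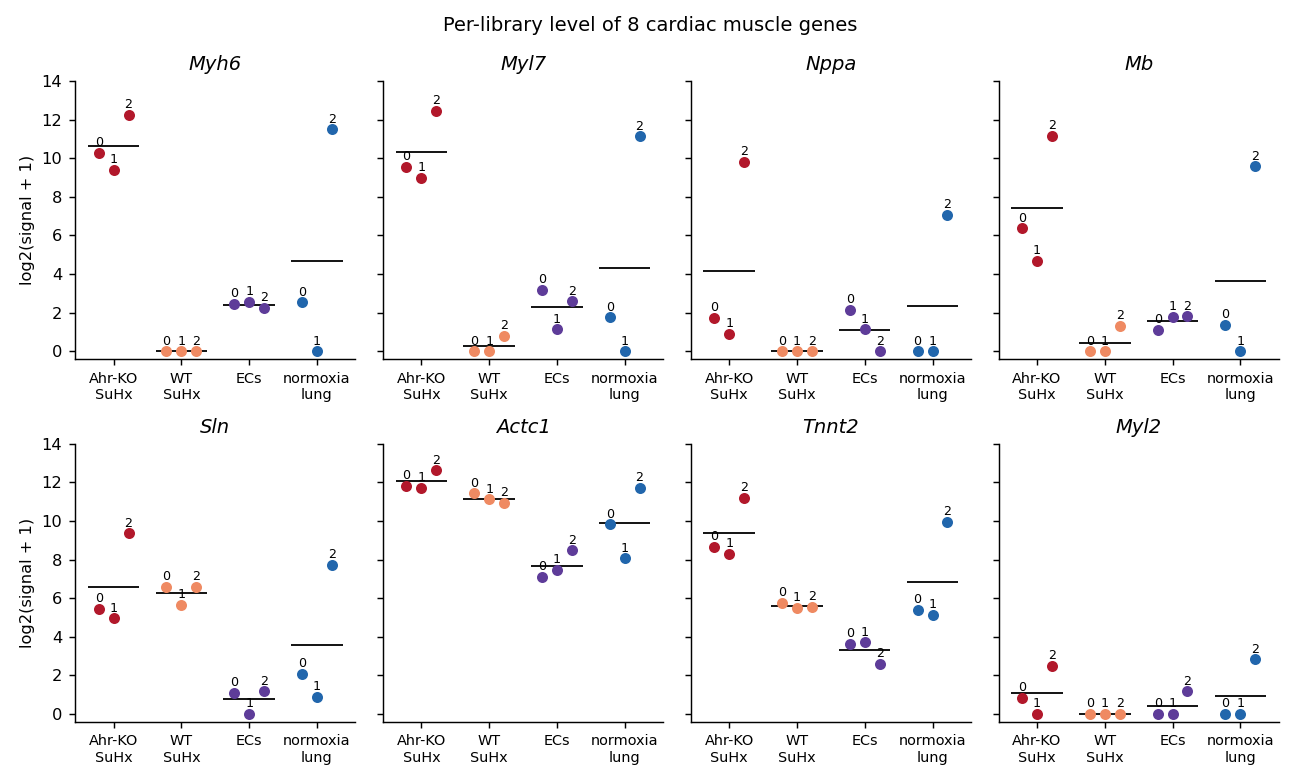
Level of 8 cardiac muscle genes in each library, as log2(signal + 1), by group, with the library number beside each point and a bar at the mean of the 3 logged values. Myh6 and Myl7 sit at or near 0 in WT SuHx lungs and in normoxia lungs 0 and 1, and Nppa is high in Ahr-KO SuHx 2 and normoxia lung 2 only. Sln and Actc1 are higher in WT SuHx lungs than in normoxia lungs 0 and 1, and lower than in normoxia lung 2.

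Titin (Ttn), the elastic spring of the sarcomere, had a signal of 577, 438 and 2281 in Ahr-KO SuHx lungs, 203, 193 and 96.1 in WT SuHx lungs, 233, 189 and 66.1 in ECs, and 294, 686 and 783 in normoxia lungs. Here normoxia 1 lay above Ahr-KO SuHx 0 and 1, and all WT SuHx lungs lay below all normoxia lungs. Csrp3 (muscle LIM protein), Actn2 (sarcomeric alpha-actinin) and Myoz2 (calsarcin-1), all of the Z disc, showed the pattern of Myh6, with 30.1 to 605 in the Ahr-KO SuHx lungs, 0 to 3.72 in WT SuHx lungs, and 0 to 2.39 in normoxia 0 and 1. Normoxia 2 had 291 for Csrp3, 388 for Actn2 and 149 for Myoz2. Ldb3 (Cypher, also a Z disc protein) was present throughout, with 326, 244 and 787 in Ahr-KO SuHx lungs, 169, 159.8 and 126 in WT SuHx lungs, 80.8, 55.4 and 61.2 in ECs, and 137, 208 and 459 in normoxia lungs.

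The other genes of this role were intermediate. Tcap (telethonin), which caps titin, had 18.6, 3.54 and 42.6 in Ahr-KO SuHx lungs, 2.84, 6.12 and 6.70 in WT SuHx lungs, and 5.57, 9.38 and 33.0 in normoxia lungs, so the groups overlapped. Nrap, a scaffold of forming myofibrils, had 20.1, 11.5 and 101 in Ahr-KO SuHx lungs, 9.46, 9.18 and 11.2 in WT SuHx lungs, and 13.5, 18.8 and 90.5 in normoxia lungs. Of the M line genes, Myom1 had 143, 114 and 244 in Ahr-KO SuHx lungs, 84.2, 71.1 and 87.1 in WT SuHx lungs, 54.7, 39.8 and 73.6 in ECs, and 37.4, 34.1 and 173 in normoxia lungs. Myom2 had 111, 53.1 and 458 in Ahr-KO SuHx lungs, 28.4, 36.7 and 27.6 in WT SuHx lungs, and 19.9, 12.8 and 384 in normoxia lungs. Smpx, a small muscle protein, had 48.0, 41.6 and 433 in Ahr-KO SuHx lungs, 18.9, 23.7 and 17.1 in WT SuHx lungs, and 5.57, 0.852 and 156 in normoxia lungs. For Myom1, Myom2 and Smpx, WT SuHx lungs lay between the Ahr-KO lungs and normoxia 0 and 1.

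Among the calcium handling genes, Sln stood apart from the atrial light chains. Its signal was 42.6, 30.1 and 654 in Ahr-KO SuHx lungs, 94.6, 49.7 and 96.1 in WT SuHx lungs, 1.14, 0 and 1.25 in ECs, and 3.18, 0.852 and 209 in normoxia lungs. All WT SuHx lungs lay above Ahr-KO SuHx 0 and 1 and above normoxia 0 and 1, whereas Myl7 had at most a single read in the same WT SuHx lungs. Pln (phospholamban), which inhibits the same calcium pump, had 193, 112 and 808 in Ahr-KO SuHx lungs, 170.3, 168 and 193 in WT SuHx lungs, 35.3, 32.5 and 48.7 in ECs, and 80.3, 49.4 and 223 in normoxia lungs. The signal of Sln relative to Pln was 0.221, 0.268 and 0.809 in Ahr-KO SuHx lungs, 0.556, 0.295 and 0.498 in WT SuHx lungs, and 0.0396, 0.0172 and 0.938 in normoxia lungs.

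Ryr2, the calcium release channel, had 245, 159 and 674 in Ahr-KO SuHx lungs, 82.3, 73.4 and 48.4 in WT SuHx lungs, 54.7, 31.3 and 22.5 in ECs, and 54.9, 55.4 and 317 in normoxia lungs. Casq2, cardiac calsequestrin, which stores calcium in the reticulum, had 181, 121 and 663 in Ahr-KO SuHx lungs, 64.3, 45.1 and 48.4 in WT SuHx lungs, 38.7, 33.7 and 27.5 in ECs, and 18.3, 10.2 and 316 in normoxia lungs. Trdn (triadin), which links calsequestrin to the release channel, had 18.6, 4.43 and 117 in Ahr-KO SuHx lungs, 19.9, 9.18 and 11.9 in WT SuHx lungs, and 21.5, 13.6 and 71.3 in normoxia lungs, with no order between the groups.

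Among the energy and oxygen genes, Mb (myoglobin) binds oxygen in muscle. Its signal was 81.3, 24.8 and 2270.4 in Ahr-KO SuHx lungs, 0, 0 and 1.49 in WT SuHx lungs, 1.14, 2.41 and 2.50 in ECs, and 1.59, 0 and 765 in normoxia lungs. Ckm and Ckmt2, the muscle and mitochondrial creatine kinases, and Cox6a2, a muscle subunit of cytochrome c oxidase, had 49.6 to 779.6 in Ahr-KO SuHx lungs, 2.84 to 17.9 in WT SuHx lungs, 0 to 13.5 in normoxia 0 and 1, and 155 to 245 in normoxia 2. All of these genes had the 4 libraries named above over the other 5 lungs.

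The atrial hormone gene Nppa split the 4 libraries. It had a signal of 2.32, 0.886 and 893 in Ahr-KO SuHx lungs, 0, 0 and 0 in WT SuHx lungs, 3.42, 1.21 and 0 in ECs, and 0, 0 and 133 in normoxia lungs. Ahr-KO SuHx 0 and 1 were thus within a few reads of 0, as low as ECs, while they had 741 and 504 for Myl7. Nppb, the B-type peptide gene, reached 10.6 in Ahr-KO SuHx 2 and 3.07 in normoxia 2 and at most 1.77 elsewhere. Nkx2-5, a transcription factor of the heart, had 0.774, 0.886 and 9.12 in Ahr-KO SuHx lungs and 0, 0 and 4.60 in normoxia lungs, and it was listed at 0 in WT SuHx lungs and ECs.

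Ratios of signals within a library set the makeup of this RNA side by side in the 4 libraries that had much of it. The ratio of Myl7 to Myl4 was 3.48, 3.51 and 3.76 in Ahr-KO SuHx 0, 1 and 2, and 3.61 in normoxia 2. The ratio of Myh6 to Myh7 was 33.8, 21.7 and 27.7 in the Ahr-KO SuHx lungs and 32.4 in normoxia 2. By contrast, the ratio of Myl7 to Mb was 9.11, 20.3 and 2.45 in the Ahr-KO SuHx lungs and 2.94 in normoxia 2. The ratio of Myl7 to Nppa was 319, 569 and 6.23 in the Ahr-KO SuHx lungs and 16.9 in normoxia 2, the first pair resting on a few reads of Nppa. Ahr-KO SuHx 0 and 1 were therefore alike in having little Nppa and Mb beside their atrial light chains, and Ahr-KO SuHx 2 was closer to normoxia 2 than to the other lungs of its own group in these ratios.

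Gene by gene, Ahr-KO SuHx 2 had a median log2 ratio of 1.08 to normoxia 2 over the 32 genes, on log2(signal + 1), and was above it for 31. Its ratios ran from -0.36 for Myl2 to 2.73 for Nppa. Ahr-KO SuHx 0 had a median of -1.55, from -5.34 for Nppa to 0.22 for Myl3. Ahr-KO SuHx 1 had a median of -2.08, from -6.16 for Nppa to 0.74 for Myl3. Of the Ahr-KO lungs, replicates 0 and 1 differed by a median log2 ratio of 0.60, with replicate 0 higher for 29 genes, and replicate 2 lay above replicate 0 by a median of 2.48.

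**Figure D3:**
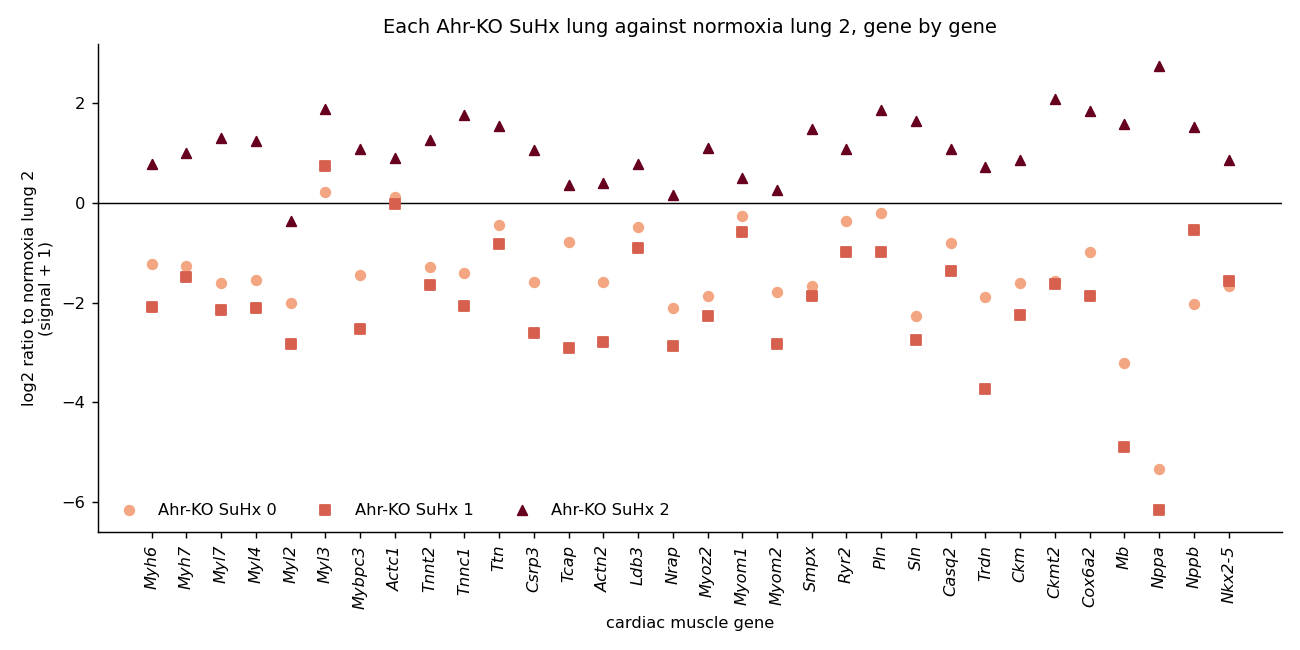
Log2 ratio of signal + 1 of each Ahr-KO SuHx lung to normoxia lung 2, for each of the 32 genes in order of role. Replicate 2 (triangles) lies above 0 for 31 genes, replicates 0 and 1 lie mostly between -3 and 0, and Nppa and Mb show the widest separation of the 3 lungs.

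Ahr-KO SuHx lungs were set against WT SuHx lungs by labelled genotype under SuHx. For 26 of the 32 genes all Ahr-KO lungs lay above all WT SuHx lungs, where 11.7% of tested genes did so. With limma, fitted over the 9 lung libraries with Benjamini-Hochberg adjustment over 15234 genes, 0 of the 32 were called at an adjusted p under 0.05, where 0.499% of all tested genes were called. At an unadjusted p under 0.05, 18 of the 32 passed, and 13.6% of all tested genes. The median log2 fold change was 2.32, against 0.02 over all tested genes, and 4 of the 32 were listed at 0 in all WT SuHx lungs. Normoxia 2 shares the estimate of the spread in this fit. When it was left out, 6 were called, all higher in Ahr-KO SuHx lungs: Myh6, Myh7, Myl7, Mybpc3, Csrp3 and Actn2, where 0.656% of genes were called and 0.276% called higher. When normoxia 2 and Ahr-KO SuHx 2 were both left out, 12 of 28 tested genes were called, all higher, where 0.559% of genes were called and 0.276% called higher. With Ahr-KO SuHx 2 alone left out the median was 1.68, with 26 of 29 tested genes above 0.

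The size of the difference varied widely between genes in this comparison. Tnnt2 averaged 13.7-fold higher in Ahr-KO SuHx lungs (log2 fold change 3.78 ± 1.18 SE) and 7.31-fold without replicate 2. Ttn averaged 5.32-fold higher (log2 fold change 2.41 ± 0.61), and 3.21-fold without that lung. Ryr2 averaged 4.42-fold higher (2.15 ± 0.70), and 2.94-fold without it. On signal + 1, Csrp3 averaged 66.6-fold and Actn2 60.3-fold higher, and without Ahr-KO SuHx 2 these were 32.1-fold and 33.3-fold. At the other end, Actc1 had a log2 fold change of 0.89 ± 0.72, Pln of 0.55 ± 0.70 and Sln of 0.31 ± 1.66, and without Ahr-KO SuHx 2 those of Pln (-0.26), Sln (-1.08) and Trdn (-0.44) turned negative.

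WT SuHx lungs were set against normoxia lungs to ask what SuHx changed by day 4. With limma 0 of the 32 genes were called, where 13.5% of all tested genes were, and 1 of the 32 had an unadjusted p under 0.05, against 31.7% of all tested genes. The median log2 fold change was -0.80, with 7 genes above 0, against -0.04 over all tested genes. The direction depended on normoxia 2. Without it, 19 of 31 genes lay above 0 and the median was 0.33: 12 genes changed sign, and Nppa and Nkx2-5 were listed at 0 in all 5 lungs compared. In that fit 3 genes were called, all higher in WT SuHx lungs, where 14.9% of all genes were called and 7.4% called higher. Sln was 27.9-fold higher (log2 fold change 4.80 ± 1.16), Actc1 4.66-fold (2.22 ± 0.47) and Myom1 2.22-fold (1.15 ± 0.32). With all 3 normoxia lungs, their log2 fold changes were 2.72 ± 1.66, 1.29 ± 0.72 and 0.40 ± 0.55.

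All WT SuHx lungs lay above normoxia 0 and 1 for 13 genes (Myl4, Myl3, Actc1, Tnnt2, Tnnc1, Myoz2, Myom1, Myom2, Smpx, Pln, Sln, Casq2 and Ckmt2), and below them for Ttn and Nrap. Among all tested genes, 24.5% lay above in this way and 29.6% below. Myh6, Myl7, Nppa and Mb were not among the 13 and had at most 4.77 in any of these lungs. With normoxia 2 and Ahr-KO SuHx 2 both left out, 8 of 28 genes were called higher and 1 lower in WT SuHx lungs, where 18% of all genes were called. Smooth muscle markers moved in the same comparison with all 3 normoxia lungs: 6 of 10 were called higher and none lower, where 13.5% of all tested genes were called. The summed signal of these markers was 52918 to 77872 in WT SuHx lungs against 31232 to 41758 in normoxia lungs. Their part in the levels of Actc1, Sln and Pln was not tested.

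**Figure D4:**
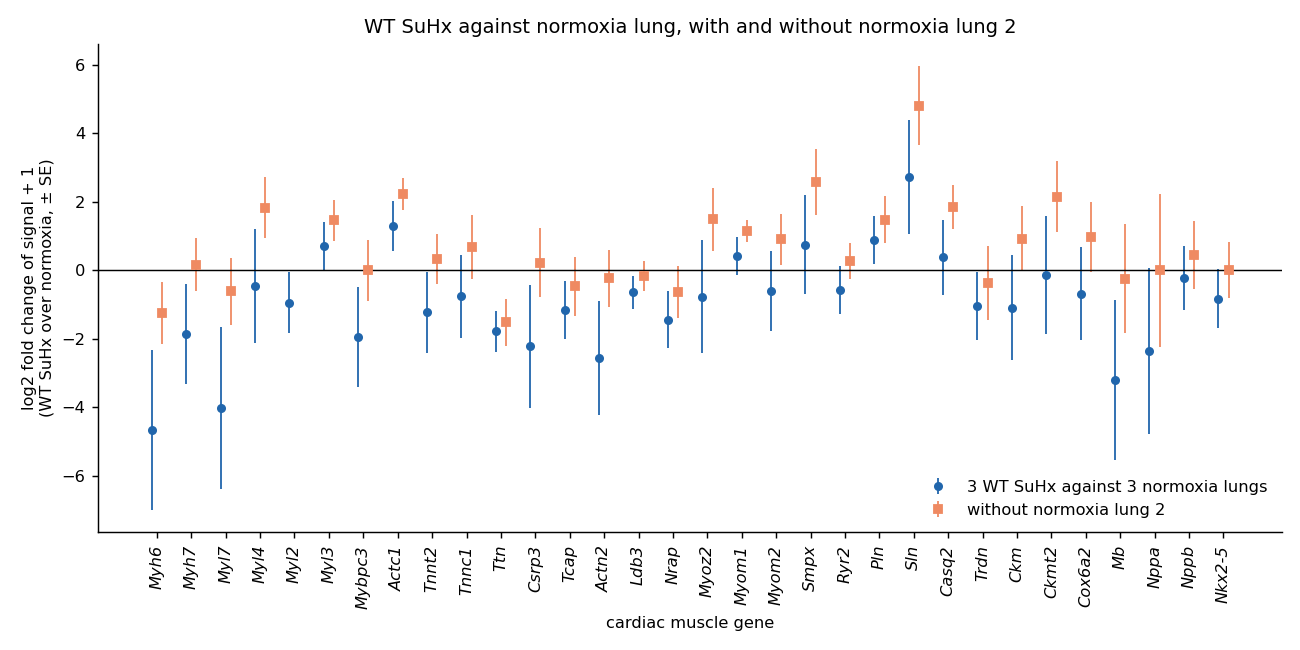
Log2 fold change of signal + 1, WT SuHx over normoxia lung, for each of the 32 genes with all 3 normoxia lungs (blue circles) and without normoxia lung 2 (orange squares); bars are ± 1 SE from limma. Without normoxia lung 2 most genes move up, 12 change sign, and Sln, Actc1 and Myom1 are the called ones; Myl2 has no value there because its mean signal fell under 1.

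Ahr-KO SuHx lungs against normoxia lungs shared libraries with both comparisons above. Here limma called 0 of the 32 genes, where 9.75% of all tested genes were called, and 9 of the 32 had an unadjusted p under 0.05, against 26.03% of all tested genes. The median log2 fold change was 2.51, against -0.03 over all tested genes. Without normoxia 2, 22 of 31 tested genes were called, all higher in Ahr-KO SuHx lungs, where 12.3% of all genes were called and 6.9% called higher, and the median was 4.11. Without Ahr-KO SuHx 2 the median was 1.87, with 24 of 29 tested genes above 0. The 9 tested genes not called without normoxia 2 were Ttn, Tcap, Ldb3, Nrap, Pln, Trdn, Nppa, Nppb and Nkx2-5. Myl4 had a log2 fold change of 3.77 ± 1.66 with normoxia 2 and 6.05 ± 0.88 without it, and Ckmt2 of 4.20 ± 1.72 and 6.49 ± 1.04.

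ECs were compared with normoxia lung. This cannot place a gene in or outside endothelial cells, since alveolar markers remained in the EC libraries. Normoxia 2, by whose levels the 32 genes were chosen in part, is among these lungs, so the calls here are also a description. In all, 29 of the 32 genes could be tested and 5 were called, all lower in ECs, where 56.2% of all tested genes were called and 30.1% called lower. These were Trdn (log2 fold change -3.62 ± 0.83), Tnnt2 (-3.52 ± 1.22), Nrap (-3.09 ± 0.75), Ttn (-1.91 ± 0.54) and Ldb3 (-1.84 ± 0.43). Of the 32, 23 had a mean under 10 in ECs. The median log2 fold change was -2.02 with normoxia 2 and -0.70 without it, where 7 of 24 genes had the other sign. Without normoxia 2, Ttn was no longer called, and Myl4 (log2 fold change 3.02 ± 0.49) and Casq2 (1.21 ± 0.38) were called higher in ECs among 24 tested genes, where 53.1% of all genes were called. All ECs lay below normoxia 0 and 1 for 9 of the 32 genes and above them for 4 (Myl4, Casq2, Csrp3 and Myom1), against 38.8% and 34.0% of all genes tested in ECs. Csrp3 had at most 3.62 in ECs, which is a few reads. The call of Tnnt2 was lost when any of the 3 EC libraries was left out (adjusted p of 0.0804 to 0.103 with limma) and that of Ttn also without normoxia 1 (0.0586), where 9 of the set and 51.6% of all genes were called.

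A list of 47 further cardiac genes, chosen with earlier results of these data known, was read beside the set. With Ahr-KO SuHx lungs against WT SuHx lungs, limma called 0 of the 44 tested. Of these, 14 had an unadjusted p under 0.05, against 13.6% of all tested genes. With WT SuHx against normoxia lungs 2 were called higher and 4 lower, with Ahr-KO SuHx against normoxia lungs 4 and 2, and with ECs against normoxia lungs 4 and 16 of 43. Median log2 fold changes were 0.61, -0.37, 0.53 and -0.84 in that order, against 0.02, -0.04, -0.03 and -0.05 over all genes. The shares of all tested genes called were 0.499%, 13.5%, 9.75% and 56.2%, in the same order. Without normoxia 2, the Ahr-KO SuHx against normoxia counts were 13 higher and 3 lower, where 12.3% of all genes were called and 6.9% called higher.

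Several of the most abundant of these 47 are used by many lung cells and did not follow the 32, although Atp2a2 had their order of libraries. Gja1 (connexin 43, a gap junction protein) was higher in Ahr-KO SuHx lungs, with a mean signal of 3031 against 1604 in normoxia lungs (log2 fold change 0.94 ± 0.15, limma, adjusted p = 0.00536). It was also higher in WT SuHx lungs, with a mean of 2914 (log2 fold change 0.89 ± 0.15, limma, adjusted p = 0.00681). Myzap, a junction protein of heart and endothelium, was lower than in normoxia lungs (mean 3462) both in Ahr-KO SuHx lungs (mean 1816, log2 fold change -0.94 ± 0.12, limma, adjusted p = 0.00135) and in WT SuHx lungs (mean 1336, -1.38 ± 0.12, adjusted p = 0.000327). Kcnq1, a potassium channel, was lower in both as well (log2 fold change -0.50 ± 0.10 in Ahr-KO SuHx and -0.48 ± 0.10 in WT SuHx lungs, limma, adjusted p = 0.0149 and 0.0153). Jph2, which holds the reticulum beside the cell membrane, was higher in Ahr-KO SuHx lungs, with 1083, 963 and 892 against 350.0, 219 and 565 in normoxia lungs (log2 fold change 1.47 ± 0.28, limma, adjusted p = 0.0108). Jph2 was higher in WT SuHx lungs too, with a mean of 709 against 378 (log2 fold change 1.01 ± 0.28, limma, adjusted p = 0.0428). That second call was not followed under the alternatives. The row that merges Cox17 with Popdc2 was lower in WT SuHx lungs (log2 fold change -0.50 ± 0.11, limma, adjusted p = 0.0183) and cannot be given to either gene. Calls of Kcnq1 were lost without Ahr-KO SuHx 0, Ahr-KO SuHx 1 or normoxia 1 in the first comparison and without WT SuHx 0 or normoxia 1 in the second, and that of the merged row without WT SuHx 0, normoxia 0 or normoxia 1 (adjusted p up to 0.0693).

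The calcium pump gene Atp2a2 (log2 fold change 0.33 ± 0.16 in Ahr-KO SuHx over WT SuHx lungs, limma, adjusted p = 0.398), the desmosome gene Dsp (-0.08 ± 0.21, adjusted p = 0.884), the arterial connexin gene Gja5 (0.20 ± 0.19, adjusted p = 0.647) and the transcription factor gene Tbx5 (-0.17 ± 0.14, adjusted p = 0.616) were not called between the SuHx groups. Atp2a2 had 7350, 6926 and 8993 in Ahr-KO SuHx lungs, 6202, 6788 and 5465 in WT SuHx lungs, and 5233, 4883 and 7097 in normoxia lungs. Its Ahr-KO lungs and normoxia 2 thus lay above all other lungs, over a narrow range. In ECs, Bmp10, a ligand of the atria, was higher than in normoxia lungs (338, 334 and 337 against 46.1, 35.8 and 53.7, log2 fold change 2.89 ± 0.20, limma, adjusted p = 5.9e-05). Tbx5 (-3.13 ± 0.20, limma, adjusted p = 4.3e-05) was lower in ECs, and Kcnj3, an atrial potassium channel, was listed at 0 in all ECs against 38.2, 18.8 and 36.0 in normoxia lungs. The row that merges cardiac troponin I (Tnni3) with Dnaaf3 had 643, 531 and 3741 in Ahr-KO SuHx lungs, 581, 533 and 549.6 in WT SuHx lungs, 13.7, 18.1 and 7.49 in ECs, and 612, 476 and 1292 in normoxia lungs. Its base level in all lungs cannot be given to either gene.

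Some less abundant genes of that list, named after their values were seen, had the pattern of Myh6, and others did not. Tbx20, a transcription factor of the heart, had 58.8, 38.1 and 237 in Ahr-KO SuHx lungs, 0, 0 and 0 in WT SuHx lungs, and 0, 0.852 and 133 in normoxia lungs. Smyd1, a methyltransferase of muscle, had 31.7, 22.1 and 139 in Ahr-KO SuHx lungs, 0, 0 and 0 in WT SuHx lungs, and 0.796, 0 and 86.7 in normoxia lungs. In limma neither was called between Ahr-KO SuHx and WT SuHx lungs (adjusted p = 0.138 and 0.156). Without that pattern, Gata4 had 37.2 to 76.7 in Ahr-KO SuHx, 39.7 to 58.9 in WT SuHx and 61.3 to 81.8 in normoxia lungs. Hcn4 had 24.8 to 40.3, 9.68 to 31.4 and 36.8 to 66.8, and Myh7b 180 to 202, 126 to 229 and 208 to 293, in that order. Normoxia 2 was lowest of its group for Hcn4 and Myh7b. The genes of the list with and without the pattern were not counted.

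The 21 markers of skeletal muscle did not show the order of libraries seen for the set in their sum. This was 3528 to 3965 in Ahr-KO SuHx lungs, 3498 to 4878 in WT SuHx lungs, 3740 to 4421 in ECs and 2615 to 3837 in normoxia lungs, mostly from a row that merges Tnnt3 with Lsp1 and cannot be given to muscle. Myod1, which defines the skeletal lineage, was at 0 in all 12 libraries, and Myh4, a fast skeletal myosin, reached at most 0.886. Acta1, skeletal actin, which may share reads with Actc1, had 161, 188 and 87.4 in Ahr-KO SuHx lungs, 174, 126 and 85.6 in WT SuHx lungs, and 31.8, 11.9 and 57.5 in normoxia lungs. It was called higher than in normoxia lungs both in Ahr-KO SuHx lungs (log2 fold change 2.26 ± 0.53, limma, adjusted p = 0.0279) and in WT SuHx lungs (2.09 ± 0.53, adjusted p = 0.0315). Myh3, the embryonic myosin, had 27.1, 49.6 and 14.4 in Ahr-KO SuHx lungs, 18.9, 18.4 and 17.9 in WT SuHx lungs, and 8.75, 1.70 and 6.90 in normoxia lungs, and was called higher in Ahr-KO SuHx than in normoxia lungs (2.24 ± 0.56, limma, adjusted p = 0.035). Acta1 and Myh3 were lowest of their group in Ahr-KO SuHx 2. These 3 calls were lost when single libraries were left out: for Acta1 normoxia 0, normoxia 1, Ahr-KO SuHx 0 or 1, or any WT SuHx lung (adjusted p up to 0.107), and for Myh3 normoxia 1 or Ahr-KO SuHx 0 or 1 (up to 0.125). Between Ahr-KO SuHx and WT SuHx lungs limma called 0 of the 18 tested markers. Of these, 1 had an unadjusted p under 0.05, against 13.6% of all tested genes. The part of skeletal muscle in the levels of the 32 genes was not tested.

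Some markers of airway and fat were also high in the libraries that stood highest for the set. Bpifa1, a secreted protein of large airways, had a signal of 116, 15.1 and 28980 in Ahr-KO SuHx lungs, 0, 0 and 0 in WT SuHx lungs, 87.7, 359 and 241 in ECs, and 0.796, 0 and 1231 in normoxia lungs. Scgb3a1, an airway secretoglobin, had 1094, 671 and 16149 in Ahr-KO SuHx lungs, 738, 239 and 653 in WT SuHx lungs, and 43.8, 21.3 and 1714 in normoxia lungs. The mucin gene Muc5b had 861, 589 and 10400.5 in Ahr-KO SuHx lungs, 190.1, 452 and 380.5 in WT SuHx lungs, and 506, 224 and 493 in normoxia lungs, so normoxia 2 did not stand out for it. The 12 airway markers summed to 146448 to 266176 in Ahr-KO SuHx lungs, 130489 to 143127 in WT SuHx lungs, 12527 to 31036 in ECs and 189495 to 206195 in normoxia lungs, and Bpifa1 alone was at 0 in all WT SuHx lungs. All of the 12 airway markers but Sec14l3 and Dnah5 were highest in Ahr-KO SuHx 2 among the lungs. Foxj1 had 1780 there against 823 to 1142 in the other lungs. Tekt1 had 508 against 234 to 341, and Ccdc153 had 1345 against 564 to 716. Normoxia 2 lay within these ranges of the other lungs. Sec14l3 had 21337, 21189 and 18925 in Ahr-KO SuHx lungs, 18298, 13883 and 14962 in WT SuHx lungs, and 34834, 45510 and 30770.1 in normoxia lungs. Dnah5, a dynein of motile cilia, had 37.2, 39.8 and 13.7 in Ahr-KO SuHx lungs, 59.6, 32.1 and 13.4 in WT SuHx lungs, and 75.6, 27.3 and 44.5 in normoxia lungs.

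The fat hormone gene Adipoq had 6.19, 1.77 and 387 in Ahr-KO SuHx lungs, 0.946, 2.29 and 2.98 in WT SuHx lungs, and 2.39, 2.56 and 28.4 in normoxia lungs. Ucp1, the uncoupling protein of brown fat, was at 172 in Ahr-KO SuHx 2 and at most 0.767 in the other 11 libraries. The 8 adipocyte markers summed to 472 to 2952 in Ahr-KO SuHx lungs, 385 to 492 in WT SuHx lungs, 641 to 1701 in ECs and 346 to 553 in normoxia lungs. Of these 20 markers, limma called 0 between the SuHx groups. An unadjusted p under 0.05 was found for 2 airway markers, against 13.6% of all tested genes. The part of airway and fat in the levels of the 32 genes was not tested.

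The 7 markers of autonomic neurons were also highest, in sum, in Ahr-KO SuHx 2 and normoxia 2. They summed to 276, 292 and 425 in Ahr-KO SuHx lungs, 260.1, 176 and 276 in WT SuHx lungs, 211, 195 and 286 in ECs, and 277, 205 and 370 in normoxia lungs. Dbh, an enzyme of noradrenaline synthesis, had 99.8, 89.4 and 179 in Ahr-KO SuHx lungs, 79.5, 81.8 and 60.3 in WT SuHx lungs, and 117, 75.9 and 91.3 in normoxia lungs. Chrna3, a nicotinic receptor of autonomic ganglia, was at 0 in all libraries. Of the 3 tested, limma called 0 between the SuHx groups. Dbh alone had an unadjusted p under 0.05, against 13.6% of all tested genes. The part of autonomic neurons in the levels of the 32 genes was not tested.

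**Figure D5:**
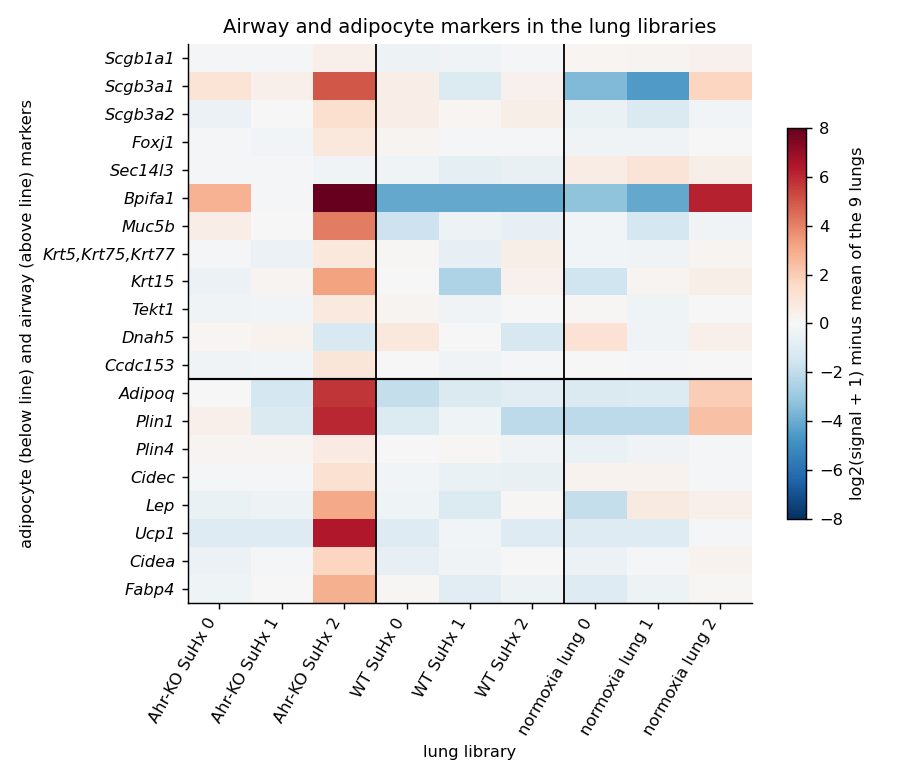
Level of 12 airway and 8 adipocyte marker rows in the 9 lung libraries, as log2(signal + 1) minus the mean of the 9 lungs for that row. Ahr-KO SuHx 2 is above that mean for most rows of both lists. Bpifa1, Scgb3a1, Adipoq and Plin1 are above that mean in normoxia lung 2 as well. Bpifa1 is above its mean in Ahr-KO SuHx 0 and close to it in replicate 1, whose signal of 15.1 exceeds that of every WT SuHx lung.

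Across the 9 lungs, the genes outside both cardiac lists whose log2 level was most like the mean log2 level of the 32 were found among those with a mean signal of at least 20. Those reported here were, in order of Pearson's r, Srl (0.985), Smpd3 (0.98), Bpifa1 (0.979), Hfe2 (0.962), Hamp (0.947), Txlnb (0.944), Fut7 (0.943) and Cxcl13 (0.934). These values share the same 9 libraries and rest largely on the 4 with a high level. Srl, sarcalumenin, a calcium-binding protein of the reticulum, had 109, 68.2 and 462 in Ahr-KO SuHx lungs, 20.8, 20.6 and 14.9 in WT SuHx lungs, and 12.7, 4.26 and 253 in normoxia lungs. Hamp, the iron hormone hepcidin, had 40.2, 23.02 and 194 in Ahr-KO SuHx lungs, 0, 0 and 5.21 in WT SuHx lungs, and 0, 0.852 and 72.1 in normoxia lungs. Of the 27 members with enough signal for this measure, r ran from 0.687 for Trdn, 0.733 for Sln, 0.748 for Ttn and 0.756 for Actc1 up to 0.996 for Tnnt2.

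Promoter sequences of 25 of the 32 genes were in the RefSeq table for the GRCr8 assembly, each from 250 bases before to 50 after the gene's start. Motifs were looked for on both strands, and TATAAA can lie within a MEF2 box. The CArG box (bound by serum response factor) was found in 3 of 25, against 1.64% of all 33469 promoters, in Myl3, Actc1 and Ldb3. The MEF2 box was found in 6 of 25, against 3.29% of all, in Mybpc3, Ttn, Myoz2, Smpx, Casq2 and Cox6a2. The letters TATAAA were found in 4 of 25 (Myl4, Mb, Nppa and Nppb), against 14.2% of all. The core GCGTG, to which the aryl hydrocarbon receptor binds with its partner, was found in 10 of 25, against 29.7% of all, among them Myl7, Tnnt2, Actn2 and Ryr2 and not Myh6 or Actc1. A match is a description of letters and not a site of binding.

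The windows of 4 genes, 1 for each motif, are given 5′ to 3′ on the strand of the gene, with the matched motif in capitals. Actc1 is shown as the gene with most signal in WT SuHx lungs, with a CArG box (chr3:121271778-121272077, minus strand). Mybpc3 is shown as a gene high in the 4 libraries, with a MEF2 box (chr3:97550811-97551110, plus strand). Nppa is shown as the gene that split them, with TATAAA (chr5:163711934-163712233, plus strand). Myl7 is shown as the atrial light chain, with GCGTG on the other strand, read here as CACGC (chr14:84996575-84996874, minus strand).
Actc1: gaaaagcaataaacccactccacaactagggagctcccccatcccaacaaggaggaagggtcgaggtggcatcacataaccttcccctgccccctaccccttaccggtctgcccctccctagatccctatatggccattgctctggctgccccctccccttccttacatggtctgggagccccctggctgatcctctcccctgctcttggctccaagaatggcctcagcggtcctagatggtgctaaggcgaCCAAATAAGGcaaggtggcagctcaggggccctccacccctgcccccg
Mybpc3: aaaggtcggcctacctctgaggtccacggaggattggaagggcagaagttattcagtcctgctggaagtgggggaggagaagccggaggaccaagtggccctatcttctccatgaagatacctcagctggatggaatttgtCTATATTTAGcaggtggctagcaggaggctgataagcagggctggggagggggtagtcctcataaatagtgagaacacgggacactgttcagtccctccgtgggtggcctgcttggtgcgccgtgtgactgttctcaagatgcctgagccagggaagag
Nppa: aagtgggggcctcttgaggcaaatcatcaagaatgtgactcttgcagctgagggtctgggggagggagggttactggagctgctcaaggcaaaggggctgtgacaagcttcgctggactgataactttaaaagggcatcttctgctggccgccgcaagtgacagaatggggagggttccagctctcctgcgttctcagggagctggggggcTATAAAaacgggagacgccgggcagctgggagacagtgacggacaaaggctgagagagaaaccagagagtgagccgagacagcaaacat
Myl7: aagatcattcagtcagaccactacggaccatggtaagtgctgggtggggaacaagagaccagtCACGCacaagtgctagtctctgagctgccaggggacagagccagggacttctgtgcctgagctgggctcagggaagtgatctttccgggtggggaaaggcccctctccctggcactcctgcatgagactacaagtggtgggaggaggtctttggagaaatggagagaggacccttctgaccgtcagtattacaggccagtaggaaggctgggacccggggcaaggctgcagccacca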

How the data were processed

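RNA was taken up in Trizol, purified on columns and treated with DNase, per the labels' protocols. The submitters' processing notes name the rn6 build and FastQC. For the aligner, counter, normalization and strand, nothing is given in the sources used here. The deposited unit is a signal, read from the values: estimated counts divided by 1 factor per library, of which 79.9% to 81.7% lay within 0.05 of whole reads. A count model was planned for whole counts only, so limma 3.58.1 in R 4.3.3 was used instead (eBayes with trend, two-sided) on log2(signal + 1), over genes whose mean signal reached 1. The lung comparisons came from 1 fit of 9 libraries and ECs against normoxia lung from 6. Calls needed a Benjamini-Hochberg adjusted p under 0.05 over all genes tested. Fold changes understate the change of low genes. The script was tested on simulated data. Among 19230 rows, 1046 merge genes and 2538 hold no signal anywhere.

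Groups follow the column names, whose numbers (0 to 2) differ from those of the titles, so columns were matched to groups and not to single samples. The 32 genes, the marker lists and the alternatives were chosen with earlier results of these data known. All 32 are named. Of the further cardiac genes, the 8 with the highest mean and up to 4 called per comparison are named, and, of the 10 outside genes with the highest correlation to the mean of the 32, all but those withheld here, which are not reported. Others are marked as named after their values were seen, as are the airway, fat, muscle and neuron markers, which were picked from their lists in that way. Alternatives were quantile normalization, limma without trend, a filter at a mean of 5 or none, a pseudocount of 0.1, other libraries in the fit, each library left out in turn, and the column number as a replicate block.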

Additional observations from a re-analysis of the deposited data

How the results depend on the processing

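Leaving out each library in turn, the calls among the 32 genes ranged from 0 to 6 for Ahr-KO SuHx against WT SuHx lung (the leave-outs of normoxia lungs there were chosen after seeing the data), 0 to 3 for WT SuHx against normoxia lung, 0 to 22 for Ahr-KO SuHx against normoxia lung and 4 to 9 for ECs against normoxia lung, the 9 being without normoxia 1. Over all genes these leave-outs gave 32 to 100, 862 to 2277, 721 to 1882 and 7239 to 8069 calls, in that order. Without both normoxia 2 and Ahr-KO SuHx 2 the first 3 comparisons gave 12, 9 and 22 calls. Of all genes, 0.559%, 18% and 8.75% were called there. With all 12 libraries in the fit, Ahr-KO SuHx against WT SuHx gave 1, Ahr-KO SuHx against normoxia 1 and ECs 8. Of all genes, 0.825%, 9.83% and 57.3% were called with that fit. With only the 2 groups in the fit, Ahr-KO SuHx against WT SuHx gave 4 and WT SuHx against normoxia 1, which was lower. The shares of all genes called were 0.545% and 9.58%. The EC fit holds 2 groups already, so this was not run for it. Quantile normalization gave 3 for ECs, where 54.0% of all genes were called. With the column number as a replicate block, Ahr-KO SuHx against normoxia gave 3 calls of 32 tested and ECs 9 of 29. Both were below the shares of all genes called, 14.3% and 56.4%. The labels do not say that a number pairs samples, and same-numbered libraries of compared groups deviated together with a correlation of -0.040 to 0.216, not always over 0.1, so they were not treated as pairs. In 20 of 36 pairings of a library with the 3 of another group, it correlated best with its own number, a hint from the data and not the design. No other setting moved a count of calls among the 32 by more than 1.5 times.

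The mean share of the 32 genes ranged from 0.0380% to 0.112% in Ahr-KO SuHx lungs, 0.0143% to 0.0166% in WT SuHx lungs, 0.00269% to 0.00300% in ECs and 0.00706% to 0.0434% in normoxia lungs when each library was left out. Without Actc1 it was 0.00470% in WT SuHx lungs and 0.00197% in ECs, and without Ttn 0.00221% in ECs. The log2 fold change of Ahr, Ahr-KO SuHx over WT SuHx lung, changed sign without Ahr-KO SuHx 0 (-0.05), Ahr-KO SuHx 1 (-0.05), WT SuHx 0 (-0.04) or WT SuHx 2 (-0.14), never with a call, and ranged from -0.14 to 0.27 as libraries were left out. Calls of Kcnq1 and of the Cox17 and Popdc2 row were lost without single libraries, at an adjusted p of up to 0.0693. Calls of Acta1 and Myh3 were also lost, at an adjusted p of up to 0.125. Among 2164 values of single genes under the alternatives, calls were followed only for named genes outside the 32. For these, 38 values lost their call, 1 gained it and 4, all of Ahr, changed sign. Of the members, 91 values moved by more than the spread between replicates. Calls gained or lost by members are in the counts of calls above, and not in the 38 or the 1. Changes of sign among uncalled members, up to 12 in a comparison, are not in the 4. The causes were not tested. Depth limits Myl2, Nppb and Nkx2-5 to a few reads in most libraries, and Nppa in all but 2.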
